A study of Mus musculus with 2 samples.

Results

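These cells were enterocytes with a high level of Fabp1 and an intermediate level of Fabp6, taken from single-cell RNA profiles of small intestine epithelium of mouse embryos at E18.5 (late gestation). They were chosen by their own values, as cells with Fabp1 of at least 100, Fabp6 from 10 to below 50, no count of Mki67 or Top2a and a sum of the goblet genes Muc2, Fcgbp, Spink4, Clca1 and Zg16 under 10. Values are counts per 10000 of the cell's total, called CP10K here. The choice held 476 of 11053 kept cells, 4.31% of them (exact Clopper-Pearson 95% interval 3.94 to 4.7%). Fabp1 and Fabp6 alone were in range in 534 cells, of which 47 were dropped for a count of Mki67 or Top2a and 11 for the goblet sum.

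The series held 1 Tet3KO library and 1 Control library, each a pool of sorted epithelial cells from 2 embryos, with the strain given as C57BL6/J. The Tet3KO allele lacks exon 5, which puts a premature stop codon into exon 6; per the protocols it was made in embryonic stem cells and is not restricted to the gut. Cells of both groups were stored in 90% methanol before 10x Genomics 3' capture, with 6000 cells used per sample and 10000 reads per cell. The deposited table carries 2 barcode suffixes, set 0 and set 1, and no label ties either set to a genotype, so Tet3KO and Control were not compared. Every value below is a description of 1 table with no replicate, and no test was made. Intervals cover counting error only.

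Fabp1 is the liver-type fatty acid binding protein, which enterocytes use to carry long-chain fatty acids taken up from the lumen. Fabp6 is the ileal bile acid binding protein, which carries bile acids through the cells that reabsorb them at the distal end of the small intestine. In the adult gut Fabp1 is highest towards the proximal side and Fabp6 at the ileal end, so cells that hold both are looked for where the regions meet. Bile acids in ileal enterocytes activate the nuclear receptor FXR (Nr1h4), whose targets in that tissue include Fabp6, the hormone Fgf15 and the exporter subunits Slc51a and Slc51b. Before birth and until weaning, distal enterocytes also take up luminal protein by endocytosis and break it down in lysosomes.

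The promoters of the genes that define these cells are shown because FXR is known to act on Fabp6 through an inverted repeat. The 250 bases before the start site were read from RefSeq (GRCm38.p6) and searched on both strands for an inverted repeat, AGGTNA followed by any base and TNACCT, which reads the same on either strand, and for GTTAAT, part of the site of the hepatocyte factor HNF1. Capitals mark the matches, and the motifs do not overlap each other here. Fabp6 lies on the minus strand and its window is chr11:43601563-43601812; Fabp1 lies on the plus strand and its window is chr6:71199629-71199878.
Fabp6: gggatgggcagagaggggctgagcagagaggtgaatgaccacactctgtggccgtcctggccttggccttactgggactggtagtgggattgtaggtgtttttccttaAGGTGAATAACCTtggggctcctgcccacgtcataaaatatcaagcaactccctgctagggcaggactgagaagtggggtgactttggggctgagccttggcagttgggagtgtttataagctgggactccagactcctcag
Fabp1: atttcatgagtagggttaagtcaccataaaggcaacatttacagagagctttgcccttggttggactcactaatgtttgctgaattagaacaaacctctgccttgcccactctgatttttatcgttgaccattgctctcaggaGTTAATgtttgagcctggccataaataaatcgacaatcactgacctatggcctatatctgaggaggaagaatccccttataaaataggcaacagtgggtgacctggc
The Fabp6 window held 1 match to the inverted repeat, with its first base at -142 from the start site, and no GTTAAT. The Fabp1 window held 1 GTTAAT, with its first base at -107, and no inverted repeat. Over all 32851 promoter windows of this length, 6 held the inverted repeat (0.0183%) and 2113 held GTTAAT (6.43%). A match describes these letters and no more.

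The cells were compared with 3 groups. All other kept cells numbered 10577. The low-Fabp6 flank, with Fabp6 under 10 and the other limits the same, held 4752 cells, and the high-Fabp6 flank, with Fabp6 of 50 or more, held 436. Both sets were present in each group but in unequal shares. Set 0 gave 320 of the 476 cells (5.39% of its 5933 kept cells) and set 1 gave 156 (3.05% of 5120). The low flank held 2346 cells of set 0 and 2406 of set 1, while the high flank held 413 of set 0 and 23 of set 1. Dropping set 1 cells with a shared barcode bears on this, since it removed 179 set 1 cells with Fabp6 of 50 or more, at any Fabp1, and kept 27. Values are therefore given for both sets, and any set 1 value of the high flank rests on 23 cells.

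The enterocyte identity of the cells was clear from markers that the choice did not use. The summed level of 8 enterocyte markers was 678 CP10K, against 649 in the low flank, 598 in the high flank and 422 in other cells, and 7 of the 8 were above other cells. Apoa1, an apolipoprotein of chylomicrons, averaged 212 CP10K and Fabp2, the intestinal fatty acid binding protein, 300 CP10K. Markers of other cell types were low. The 7 goblet markers summed to 0.449 CP10K, against 0.254 in the low flank, 0.564 in the high flank and 3.36 in other cells. Of these, Muc2, Fcgbp, Spink4, Clca1 and Zg16 were capped by the choice and in both flanks, so that low sum is no finding. Tff3, a goblet marker that the choice did not use, averaged 0.251 CP10K against 1.36 in other cells. The 4 stem markers summed to 0.00533 CP10K against 0.219 in other cells. No cell had a count of any of the 3 immune or 3 neural markers in the table. The 3 hepatic markers in the table summed to 1.70 CP10K against 0.958 in other cells, carried by Fgb and Serpina1a, with Alb at 0 in all 476 cells, and their part in the serum protein values below was not tested. Nothing in these values went against the name enterocyte.

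Position between regions was less well marked. Of the genes that the cell group was named for, Enpp7 (chr11:118988188-118993221, plus strand, GRCm38, GENCODE M21) and Car5a (chr8:121916126-121944904, minus strand) were not used to choose cells. Enpp7, the alkaline sphingomyelinase of the brush border, averaged 0.361 CP10K in set 0 and 0.14 in set 1, against 0.291 and 0.0494 in the low flank and 0.354 and 0.0489 in the high flank. Car5a, a mitochondrial carbonic anhydrase, averaged 0.586 and 0.0781 CP10K, against 0.223 and 0.0321 in the low flank and 0.571 and 0.160 in the high flank. Over both sets the log2 ratio to other cells was 1.33 for Enpp7 and 1.67 for Car5a, and the log2 ratio to the high flank was -0.22 for Enpp7 and -0.38 for Car5a. Over both sets both genes were thus above other cells but not above the high flank, while within set 0 they were level with it. Within set 1 Enpp7 was above both flanks and Car5a was below the high flank, which there held 23 cells. Over both sets no gene peaked in the group: none of the genes at 1 CP10K or more, or at 0.2 or more, was at least 1.5-fold above both flanks, and none at 1 or more was that far below both. Peaks were not looked for within each set. Among genes at 1 CP10K or more, the gene nearest to a peak was the fatty acid synthase Fasn, at 1.03 CP10K against 0.758 in the low flank and 0.749 in the high flank. Over both sets the group is an interval of a range, without a gene of its own by this measure.

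**Figure D1:**
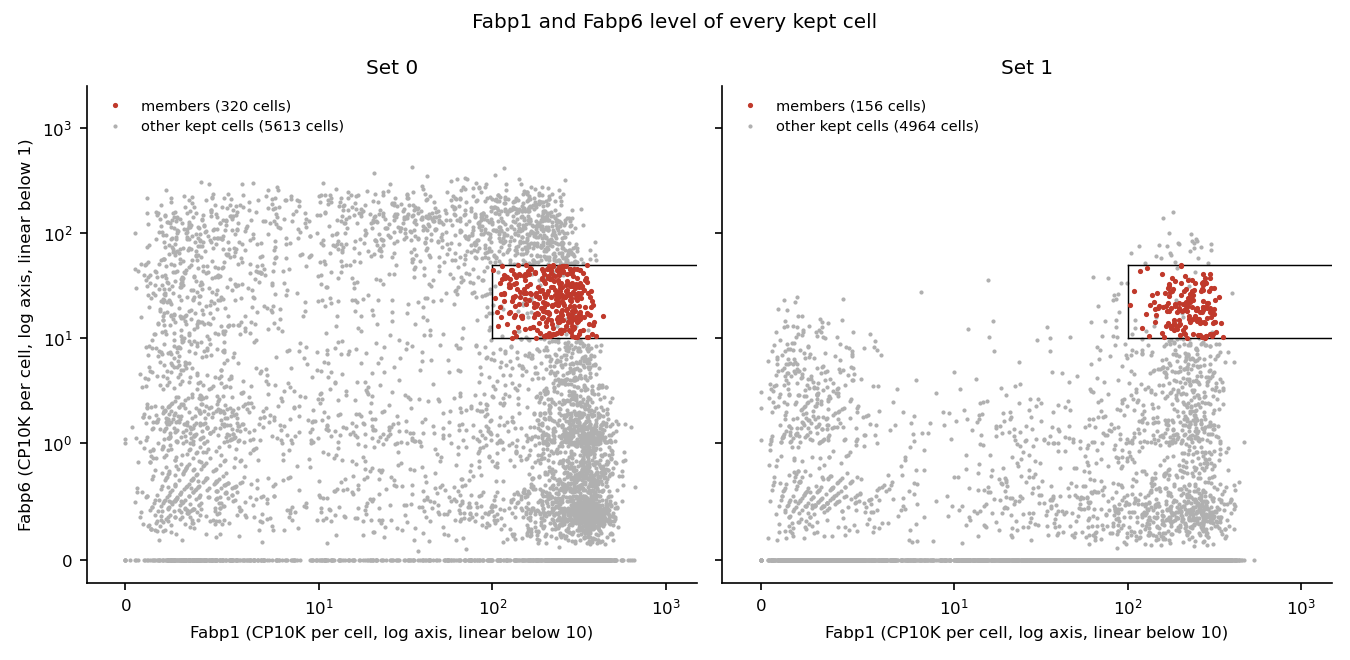
Fabp1 (x axis) and Fabp6 (y axis) in CP10K for every kept cell, set 0 on the left and set 1 on the right, both on log axes with a linear stretch near 0. The box is the choice by Fabp1 and Fabp6, red points are the 476 cells chosen and grey points inside the box were left out by the other limits. Cells run without a gap across the lower edge in both sets and across the upper edge in set 0, and few set 1 cells lie above it.

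Within the group Fabp6 ran from 10.0 to 49.9 CP10K per cell with a median of 21.4, and Fabp1 from 100 to 432 with a median of 230. These values made the choice. Just inside the lower edge, 51 members with Fabp6 from 10 to below 12 had mean Guca2a of 1.21 CP10K and Lgmn of 3.40, and the 60 cells from 8 to below 10 had 1.20 and 2.51. Just inside the upper edge, 27 members from 45 to below 50 had Guca2a of 3.50 and Lgmn of 5.39, and the 30 cells from 50 to below 55 had 4.55 and 5.84. Reg1, which few cells held, averaged 0.648 CP10K just inside the lower edge and 0.136 just outside it. At the Fabp1 edge, 6 members from 100 to below 110 had Guca2a of 5.09, and 12 cells from 90 to below 100 had 9.76.

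Depth and shared barcodes were compared between groups. Median depth was 26576 UMIs (counted molecules) per cell, against 24364 in the low flank, 25860 in the high flank and 22855 in other cells. The share of cells above the 95th percentile of depth in their set was 6.30% (30 cells), against 3.81% in the low flank and 4.59% in the high flank. A deeper cell can be a droplet with more than 1 cell, and its part in these profiles was not tested. After thinning to 8000 UMIs, 40.5% of 42 cells with a goblet sum of 50 or more, called goblet cells here, had a Fabp6 UMI, and the source of these UMIs was not tested. All 63 such cells had a median depth of 10432 UMIs, and 21 were too shallow to thin. In 818 barcodes both sets had a cell, and the set 1 cell was dropped. Of the 320 set 0 cells, 67 had such a barcode.

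Against all other kept cells, 5347 genes reached 0.2 CP10K in 1 or both groups. A gene was called at a 2-fold difference of means, with 0.01 added to each. The cells were higher for 37 genes (0.692% of genes) and lower for 229 (4.28%). At any fold, 2601 of the 5347 genes were above other cells and 2746 below. The lowest ratios belonged to the histone genes Hist1h2ap and Hist1h2ao, the keratin Krt19, the claudin Cldn3, and Stmn1 and Tubb5 of the microtubules. Cells with Mki67 or Top2a were kept out by the choice, and genes of dividing cells are tied to that limit. Histone genes have near-identical copies, among which the counting may have split reads.

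The genes highest relative to other cells were Enpp3, Ifit1, Mfge8, Ctsl, Selenom, Slc46a3, Abcb11, Lgmn, Csf1r and Fbp1. Enpp3, an ectoenzyme that splits extracellular nucleotides, averaged 1.67 CP10K in set 0 and 1.04 in set 1, against 0.768 and 0.306 in other cells, a log2 ratio of 1.39 over both sets. The lysosomal protease cathepsin L, encoded by Ctsl, averaged 11.2 and 8.91 CP10K, against 5.40 and 3.69 in other cells, a log2 ratio of 1.18. Fructose bisphosphatase Fbp1, of gluconeogenesis, averaged 3.96 and 1.11 CP10K, against 2.17 and 0.656, a log2 ratio of 1.05. The ranking took only genes with the same direction in both sets, so their shared direction is no finding. Within each set the Fbp1 ratio was under 2-fold. Csf1r, better known as a receptor of macrophages, averaged 2.76 CP10K against 1.29 in other cells, while none of the 3 immune markers in the table had a count.

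The comparison with the low-Fabp6 flank sets the cells beside enterocytes that share their high Fabp1. At least 2-fold higher were 3 of 11 measured distal and bile acid genes, 4 of 7 serum protein genes and 1 of 17 endocytosis and lysosome genes, and at least 2-fold lower were 4 of 8 epithelial defence genes and 1 of 10 proximal genes. Of 5106 genes measured, 41 were at least 2-fold higher (0.803%) and 46 at least 2-fold lower (0.901%), with a median log2 ratio of 0.04 over all genes. At any fold, 2885 were above the low flank and 2221 below. Fabp6 itself was used for the choice and its ratio is no finding. Set 0 gave 320 of the 476 cells, 2346 of the 4752 low-flank cells and 5613 of the 10577 other cells. Ratios over both sets to these groups therefore also carry the difference between sets.

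Fgf15, the ileal hormone that represses bile acid synthesis in the liver, averaged 1.31 CP10K in set 0 and 0.526 in set 1, against 0.212 and 0.0728 in the low flank, a log2 ratio of 2.81. Guca2a, which encodes guanylin, a peptide that drives salt and water secretion, averaged 3.55 and 0.792 CP10K, against 0.582 and 0.470, a log2 ratio of 2.31. For Guca2a the log2 ratio was 2.59 within set 0 and 0.74 within set 1. Abcc2, an apical pump for conjugated organic anions, averaged 4.03 and 3.78 CP10K, against 1.76 and 1.81, a log2 ratio of 1.14. These were the 3 genes at least 2-fold higher among the 11 measured members of a list of 16 distal and bile acid genes. All 11 were above the low flank (median log2 ratio 0.59), as were 2885 of all 5106 genes measured. Against other kept cells, 10 of 11 measured genes of this list were above (2601 of 5347 over all genes). The 1 gene below other kept cells was Guca2a. Slc51a and Slc51b, the basolateral exporter of bile acids, averaged 7.85 and 3.51 CP10K, against 5.22 and 2.49 in the low flank. Slc10a2, the apical bile acid importer of the adult ileum, averaged 0.00540 CP10K, against 0.00353 in the low flank, 0.00239 in the high flank and 0.0210 in other cells, and was near 0 in all of them.

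The serum protein list had 7 measured genes of 15, and 4 were at least 2-fold higher than in the low flank (median log2 ratio 1.23). Afp, alpha-fetoprotein of the fetal liver, yolk sac and gut, averaged 8.54 CP10K in set 0 and 2.93 in set 1, against 1.42 and 1.40 in the low flank, a log2 ratio of 2.24. Its spread was wide, from 0 to 85.6 CP10K per cell with a median of 3.57. Ttr, the thyroxine carrier transthyretin, averaged 12.0 and 12.6 CP10K, against 4.39 and 5.94, a log2 ratio of 1.23. The fibrinogen chains Fgb and Fga had log2 ratios of 1.89 and 1.43. Trf, transferrin, had 0.72, and Serpina1a, whose near-identical copies may share reads, had -0.39.

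In the endocytosis and lysosome list 16 of 17 measured genes were above the low flank (2885 of 5106 over all genes), with a median log2 ratio of 0.66. Of them 1 was at least 2-fold higher. That gene was Lgmn, the asparaginyl protease legumain, at 5.61 CP10K in set 0 and 1.18 in set 1, against 1.92 and 0.483 in the low flank, a log2 ratio of 1.79. Dab2, an endocytic adaptor, had a log2 ratio of 0.84, and its cargo receptors Lrp2 (megalin) and Cubn (cubilin) had 0.84 and 0.72. Cubilin's partner Amn averaged 7.26 CP10K against 5.36, a log2 ratio of 0.44. Fcgrt, the neonatal Fc receptor that carries maternal antibody, was the exception at 23.8 CP10K against 25.2. Gpx3, a secreted glutathione peroxidase, averaged 19.5 and 5.74 CP10K, against 7.09 and 2.29, a log2 ratio of 1.68. The genes ranked highest over the low flank were picked for the same direction in both sets, so their shared direction is no finding. Fgb and Fga, which were not ranked, also had the same direction in both sets. Cubn and Amn also stand in the distal and bile acid list.

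The other genes highest over the low flank were Bex1, Selenom and Cpne8. Bex1, a gene of fetal and neural tissue, averaged 1.05 CP10K in set 0 and 1.05 in set 1, against 0.25 and 0.411 in the low flank. Over both sets Bex1 was below its level in other kept cells. Selenom, a selenoprotein of the endoplasmic reticulum, averaged 5.32 and 4.43, against 1.74 and 1.94. Cpne8, a copine of the calcium-dependent membrane-binding family, averaged 1.44 and 0.759, against 0.642 and 0.364.

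On the lower side, all 8 measured genes of a 12-gene epithelial defence list were below the low flank (median log2 ratio -1.26), 4 of them at least 2-fold. Over all genes 2221 of 5106 were below it, and 0.901% at least 2-fold. Reg1, a regenerating-family protein also made by the pancreas, averaged 0.190 CP10K in set 0 and 0.575 in set 1, against 1.91 and 2.05 in the low flank, a log2 ratio of -2.61. Only 46 of 476 cells had a Reg1 count and the highest cell held 81.6 CP10K, so the mean rests on few cells. Ctrb1, a pancreatic chymotrypsinogen listed with them, averaged 0.0404 CP10K against 0.480, a log2 ratio of -3.28. Pigr, which carries antibody across the epithelium, had -1.71 and Reg3b, an antimicrobial lectin, had -1.54. Reg3b had opposite directions in the sets, at 0.0484 CP10K in set 0 and 0.149 in set 1, against 0.411 and 0.102 in the low flank. The copies of the Reg family are alike and may share reads. Ctrb1 is also a pancreatic marker, and the 3 pancreatic markers in the table summed to 0.656 CP10K, against 1.07 in the low flank, with Cela1 the highest in the cells.

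Krt19 averaged 0.462 CP10K in set 0 and 0.319 in set 1, against 1.85 and 2.13 in the low flank, a log2 ratio of -2.24. The claudins Cldn15 and Cldn3, which are part of the junctions between cells, had log2 ratios of -2.71 and -1.14. Onecut2, a transcription factor of the proximal intestine, averaged 0.219 CP10K against 0.98, a log2 ratio of -2.11. It was the 1 call among 10 measured proximal genes, of which 4 were above and 6 below the low flank (median log2 ratio -0.05). The ferroxidase Heph averaged 0.919 CP10K against 0.635 and the cholesterol transporter Npc1l1 1.503 against 1.28, while Khk, which phosphorylates fructose, averaged 0.365 against 0.604. Gata4, which sets jejunal identity in the mouse, averaged 0.227 CP10K against 0.275, and Cdx2, which specifies the intestine, 1.39 against 1.5. Of the 8 measured regional regulators only Onecut2 was called. The other genes lowest relative to the low flank were Dmbt1, Cda, Glod5, Cyp2d26, Nr2e3, Phgr1, Ckb and Aqp8, with log2 ratios between -1.99 and -1.56.

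**Figure D2:**
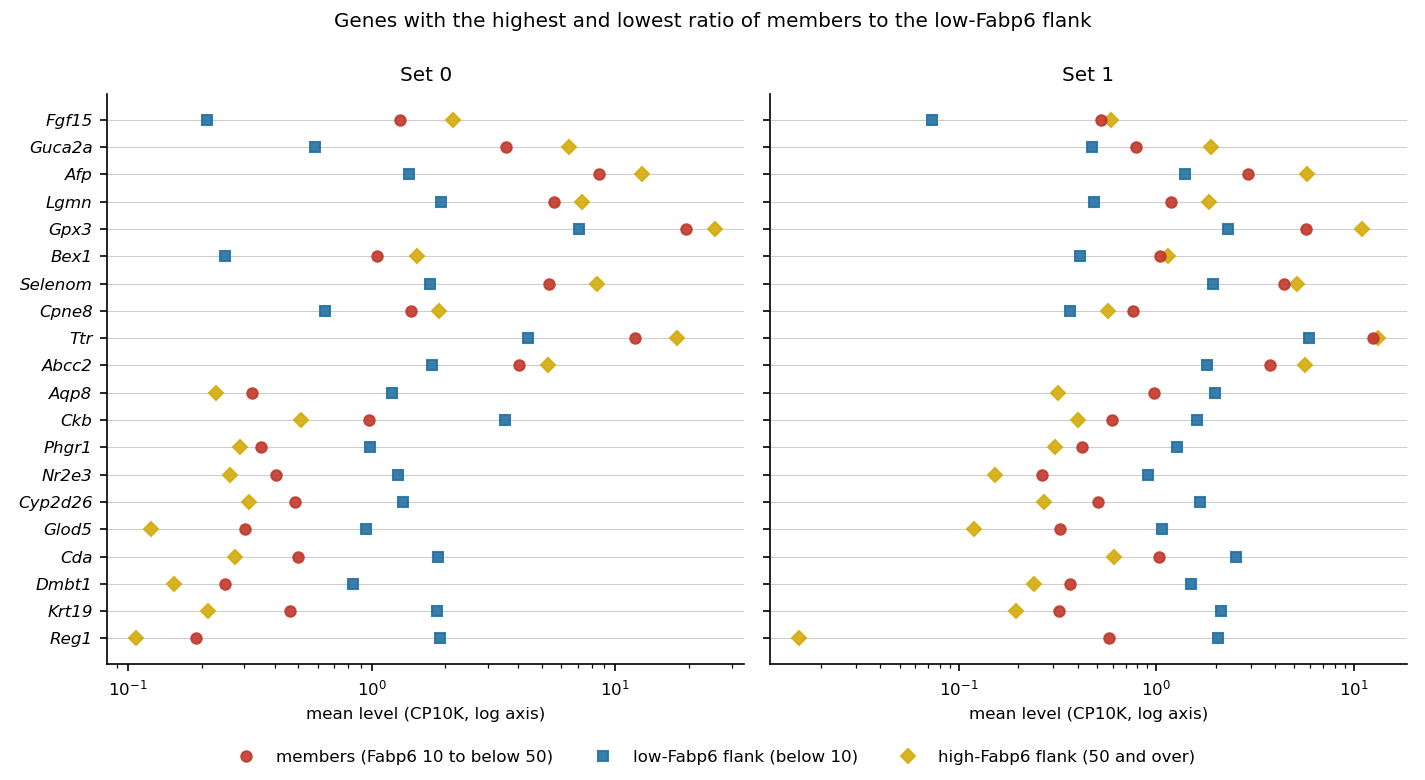
Mean level in CP10K (log axis) of the 10 genes with the highest and the 10 with the lowest ratio to the low-Fabp6 flank, in set 0 (left) and set 1 (right). Circles are the cells described, squares the low-Fabp6 flank and diamonds the high-Fabp6 flank. In set 0 the circles lie between squares and diamonds for all 20 genes, and in set 1 for 19 of them, with Cpne8 above both.

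Against the high-Fabp6 flank the cells were nearer. Of 5060 genes, 10 were at least 2-fold higher (0.198%) and 5 at least 2-fold lower (0.0988%), and Fabp6 is among these 5 by choice. Set 0 alone gave 5 higher genes, and set 1 alone, with its 23 high-flank cells, gave 101 higher and 98 lower. The genes called lower included Guca2a, at 2.65 CP10K against 6.20, a log2 ratio of -1.22. Fgf15 had 1.05 CP10K against 2.07, Afp 6.70 against 12.5, Lgmn 4.16 against 7.02 and Gpx3 15.0 against 25, with log2 ratios from -0.97 to -0.74 that did not reach 2-fold. On the higher side, Mme, the brush border peptidase neprilysin, averaged 0.787 CP10K in set 0 and 1.75 in set 1, against 0.345 and 1.16 in the high flank, a log2 ratio of 1.48. Mme was also lower than in the low flank, where it averaged 2.92 and 2.77 CP10K. Aadac, a lipid esterase, averaged 2.20 CP10K against 1.26 and Dhrs1, a short-chain dehydrogenase, 2.07 against 1.26. Reg1 was at 0.316 CP10K against 0.103, but the share of cells with a Reg1 UMI was not higher. Unthinned, this share was 9.66%, against 10.1% in the high flank. Since 413 of the 436 high-flank cells came from set 0, the pooled ratios also carry the difference between sets: within set 0 the log2 ratio was -0.38 for Lgmn and -0.59 for Afp.

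The flanks themselves differed more. Of 5153 genes, the high flank was at least 2-fold higher than the low flank for 133 (2.58%) and lower for 116 (2.25%), and 248 of these were not used in the choice. In 246 of the 248 genes the level in the cells lay between the flanks. The exceptions were Il1a, at 0.216 CP10K against 0.102 in the low flank and 0.215 in the high flank, and Reg3b, at 0.0813 against 0.255 and 0.116. On a log2 scale with the low flank at 0 and the high flank at 1, the cells had a median position of 0.67 (quartiles 0.58 and 0.76), and 218 genes were nearer to the high flank. The same 248 genes gave a median of 0.75 within set 0, where 231 lay between, and 0.67 within set 1, where 193 did. With the genes apart picked within set 1 instead, 464 genes were found, 409 of them lay between, and the median position was 0.37. On the linear scale of CP10K the median position was 0.60 for the 132 genes higher in the high flank and 0.72 for the 116 lower ones, against 0.20 for Fabp6. The choice by Fabp6 placed the cells between the flanks for Fabp6, and genes that vary with Fabp6 follow, so the share of genes in between is a description.

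**Figure D3:**
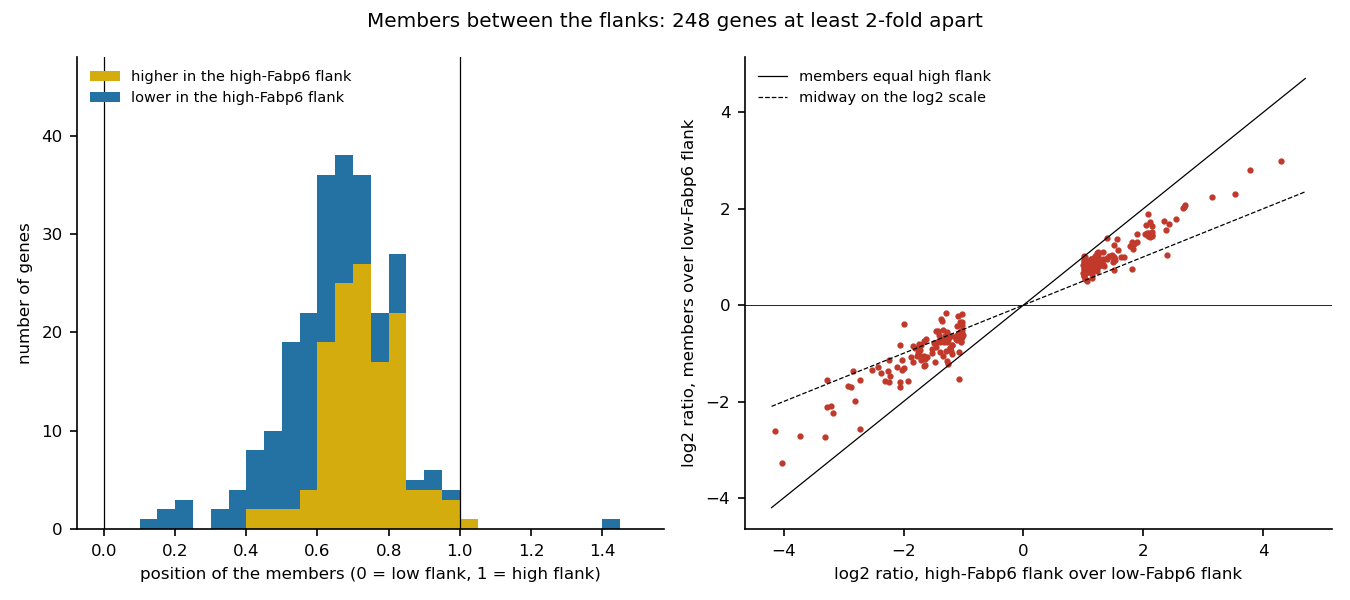
Left, number of genes by position of the cells between the low-Fabp6 flank (0) and the high-Fabp6 flank (1) on the log2 scale, for 248 genes at least 2-fold apart between the flanks. Right, log2 ratio of the cells to the low flank (y axis) against that of the high flank to the low flank (x axis), where the solid line marks equality with the high flank and the dashed line the midpoint; most points lie between the lines.

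The range was also visible among the cells. The 476 cells fell into Fabp6 bins of 209 (10 to below 20), 136 (20 to below 30), 74 (30 to below 40) and 57 (40 to below 50). Across them Afp averaged 5.16, 7.09, 7.83 and 9.97 CP10K and Lgmn 3.40, 4.10, 4.86 and 6.19. Mme averaged 1.31, 1.11, 0.820 and 0.701 CP10K. These genes thus followed Fabp6 in opposite directions over the same bins. Enpp7 averaged 0.289, 0.260, 0.254 and 0.399 CP10K and Car5a 0.338, 0.506, 0.458 and 0.465, with no order across the bins. The bins hold different shares of each set, since set 1 gave 86 of the first 209 cells and 7 of the last 57. Within set 0 alone Lgmn averaged 5.03, 5.53, 5.93 and 6.84 CP10K, so its order was the same there, and Guca2a averaged 2.70, 3.62, 5.25 and 3.60. Mme averaged 0.855, 0.786, 0.746 and 0.665 CP10K within set 0, the same order over a narrower range.

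**Figure D4:**
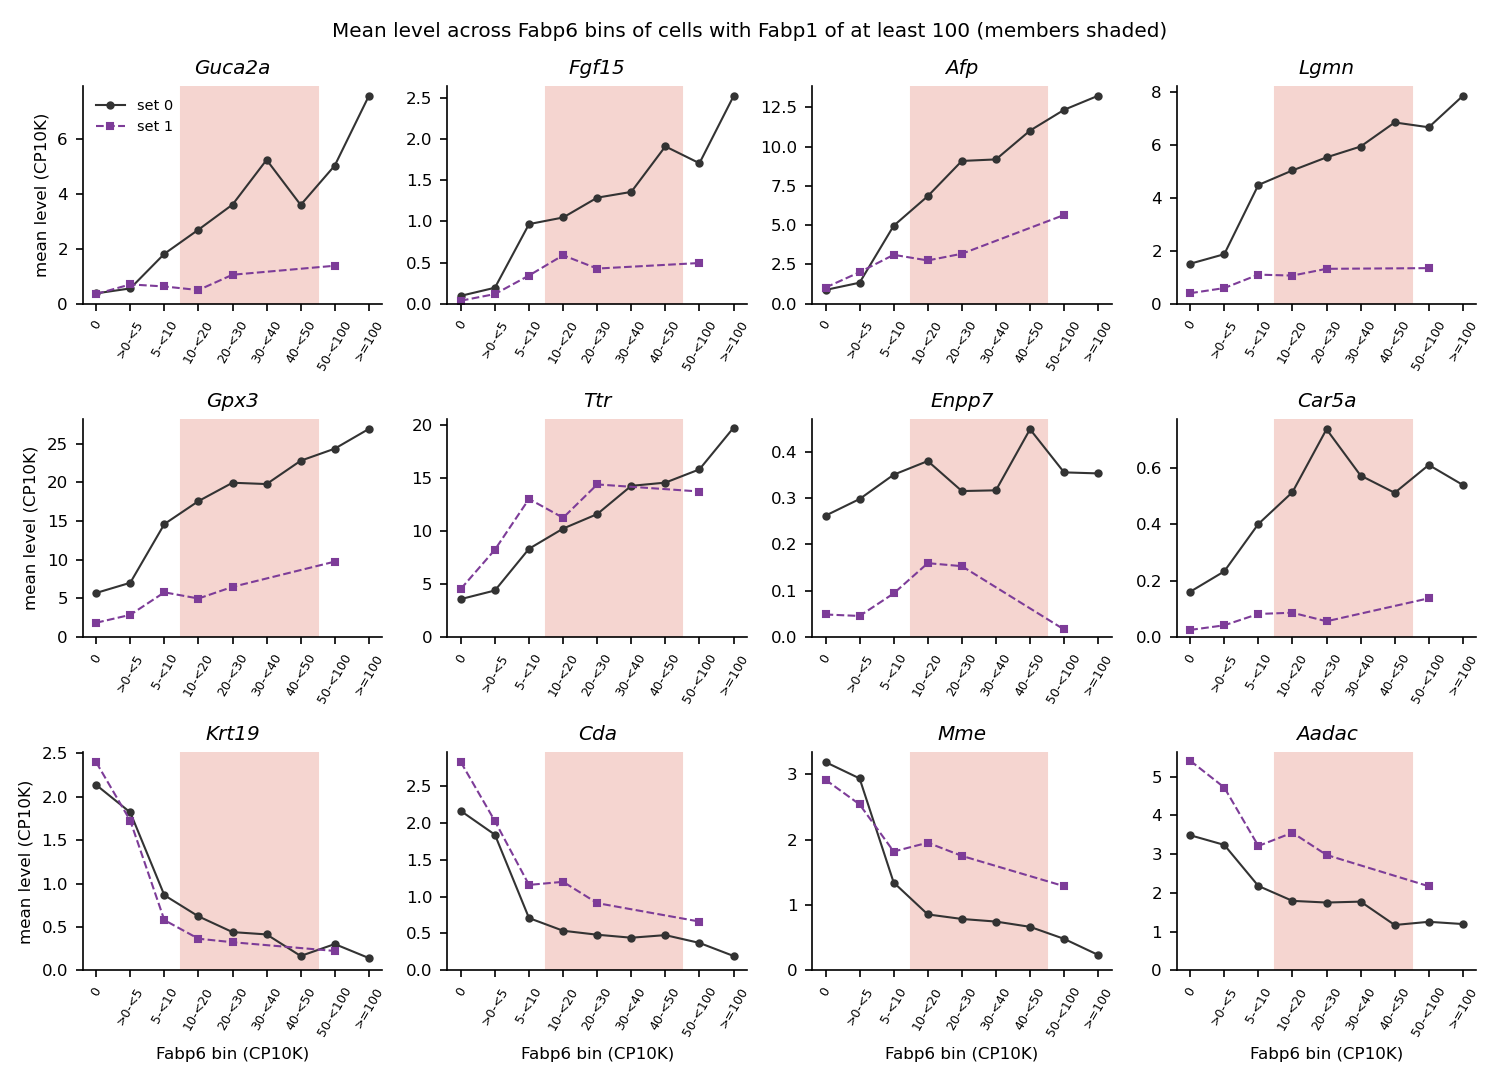
Mean level in CP10K (y axis) of 12 genes across Fabp6 bins in CP10K (x axis) of cells with Fabp1 of at least 100, for set 0 (solid) and set 1 (dashed), with the bins of the cells described shaded. Points of fewer than 20 cells are left out. In set 0 Afp, Lgmn, Gpx3 and Ttr are higher and Krt19, Cda, Mme and Aadac lower in the highest bin than in the lowest, and Enpp7 and Car5a show no such order within the shaded bins.

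For Fgf15 and Lgmn the shares of cells with a UMI had the same order over the cells and both flanks as the levels. After thinning each cell to 8000 UMIs, which left out 3 of the cells, 46.5% had a Fgf15 UMI (exact 95% interval 41.9 to 51.1%), against 7.36% in the low flank, 72.1% in the high flank and 11.9% in goblet cells. For Lgmn the shares were 77.2%, against 37.4% in the low flank, 95.9% in the high flank and 23.8% in goblet cells. Guca2a and Bex1 had higher shares in goblet cells than in the cells described. The Guca2a shares were 90.5% and 55.2%, and the Bex1 shares 59.5% and 43.1%. Afp, Gpx3 and Abcc2 had lower shares in goblet cells. The goblet share of Fgf15 rests on 5 of 42 cells (interval 3.98 to 25.6%). Within the low flank the mean level of Fgf15 was 0.0540 CP10K in cells with no Fabp6, 0.172 with Fabp6 above 0 to below 5 and 0.710 with Fabp6 from 5 to below 10. Unthinned, 73.1% of the cells had a Fgf15 UMI and 92.2% a Lgmn UMI.

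Gene lists for other functions separated less. Over all genes, 2885 of 5106 were above the low flank and 2601 of 5347 above other cells. At least 2-fold below were 0.901% against the low flank and 4.28% against other cells. The chylomicron assembly genes were above other cells in 15 of 17 cases (median log2 ratio 0.45), but close to the low flank, with 8 above and 9 below it (median -0.04). Apob, the scaffold of the chylomicron, averaged 11.6 CP10K, against 10.1 in the low flank, 11.2 in the high flank and 7.37 in other cells. Rbp2, the retinol binding protein of enterocytes, averaged 126 CP10K in set 0 and 126 in set 1, against 212 and 175 in the low flank. Fabp1, used in the choice, averaged 231 and 227 CP10K, against 316 and 230. The retinoid and xenobiotic list had 2 of 11 measured genes at least 2-fold below the low flank, the retinal dehydrogenase Aldh1a1 at -1.34 and the cytochrome Cyp2c65 at -1.56 on the log2 scale. Of 16 measured cholesterol synthesis genes, 14 were above the low flank without a 2-fold call (median log2 ratio 0.34), with 0.57 within set 0 and 0.21 within set 1. Sqle, squalene epoxidase, averaged 0.456 CP10K in set 0 and 0.396 in set 1, against 0.248 and 0.341. The 17 cytosolic ribosome genes were below other cells in 16 cases (median log2 ratio -0.73), 4 of them at least 2-fold.

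Among brush border hydrolases 1 of 13 measured genes was at least 2-fold above the low flank, the peptidase Naaladl1 at 1.34 CP10K against 0.630. Also 1 was at least 2-fold below it, Mme. Over all genes these shares were 0.803% and 0.901%. The peptidase Ace averaged 3.60 CP10K, against 2.80 in the low flank. The regulators of enterocyte identity had no call among 15 measured, with 12 above the low flank (median log2 ratio 0.16). Hnf4a averaged 1.21 CP10K against 0.850, Klf4 0.407 against 0.237, and Nr1h4, the bile acid receptor FXR, 1.86 against 1.55. In the interferon and antigen presentation list Psmb8, a subunit of the immunoproteasome, was the only call against the low flank, at 0.238 CP10K against 0.674, while Ifit1, an interferon-induced gene, averaged 1.01 CP10K against 0.521.

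**Figure D5:**
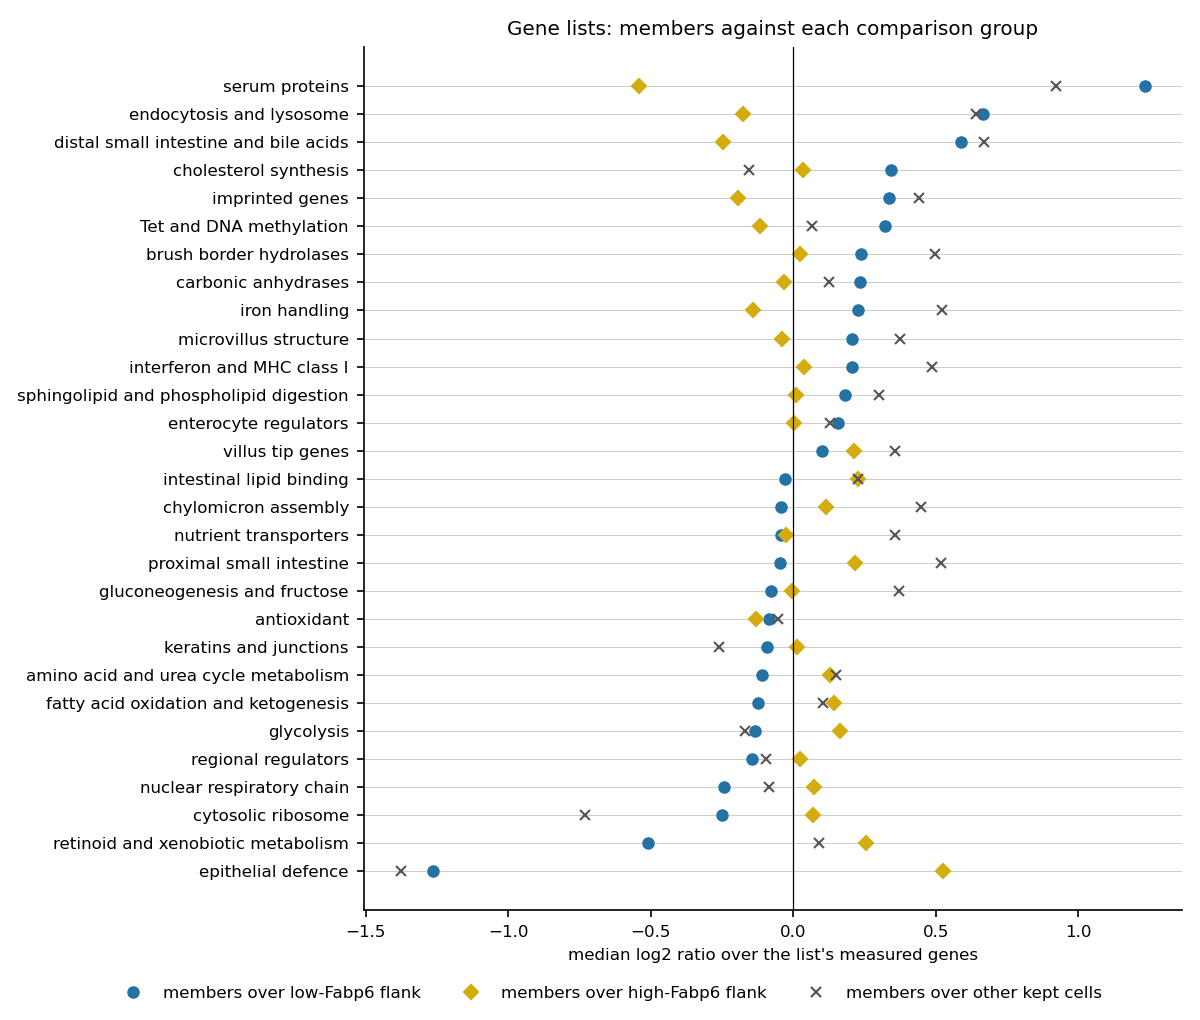
Median log2 ratio (x axis) over the measured genes of each list (y axis), for the cells over the low-Fabp6 flank (circles), over the high-Fabp6 flank (diamonds) and over other kept cells (crosses). Over both sets, serum protein, endocytosis and distal lists lie right of 0 against the low flank and left of 0 against the high flank, where the serum protein list is at -0.54 (-0.21 within set 0 and 0.06 within set 1), and the epithelial defence list has the opposite order.

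The sets differed within the group. Set 0 and set 1 cells had nearly the same mean Fabp1 (231 and 227 CP10K), Bex1 (1.05 and 1.05) and Ttr (12.0 and 12.6), while Lgmn (5.61 and 1.18), Gpx3 (19.5 and 5.74), Car5a (0.586 and 0.0781), Fbp1 (3.96 and 1.11) and the imprinted transcript Mirg (1.05 and 0.117) were higher in set 0. Insig1, a brake on sterol synthesis, averaged 1.54 CP10K in set 0 and 2.80 in set 1, and Mme 0.787 and 1.75. Lgmn, Gpx3, Car5a and Insig1 also differed between sets in the low flank, where Lgmn averaged 1.92 and 0.483 CP10K and Insig1 1.57 and 2.86. For Mme the low-flank means given above were near level, and slightly higher in set 0. Tet3, the gene deleted in the study, averaged 0.318 CP10K in set 0 and 0.226 in set 1. Counts of 3' tags are not placed on the deleted exon here and check no label. Fabp6-high cells with Fabp1 under 100 numbered 594 in set 0 and 0 of 5120 in set 1, and that count of 0 allows a share of up to 0.0586%. These counts are of kept cells, after the drop that removed 179 of the set 1 cells with Fabp6 of 50 or more. What sets the 2 sets apart, genotype included, cannot be told apart from the library.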

How the data were processed

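A single table was deposited, with 25663 genes in 11871 cells. Its values are a deposited linear signal, UMI counts divided by the cell's total and multiplied by 10000. Alevin with Salmon 0.14.1, then Scanpy 1.6.0, stand in the submitters' processing notes, which list GRCm38 and mm10 as builds. The sources used here state no filter on cells. Set 1 cells with a 16-base barcode also found in set 0 were dropped (818), which left 11053. Doublets were not called. A cell's UMI total was recovered by reading its most frequent non-zero value as 1 UMI; in the median cell 94.9% of values were then whole within 0.01. Recovered totals ran from 1152 to 250630 (median 23048), above the stated 10000 reads per cell.

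Levels are mean CP10K over cells. A gene was measured at 0.2 CP10K or more in 1 or both groups and called at 2-fold, with 0.01 added. Named genes were the 10 highest and 10 lowest ratios per comparison among genes at 1 CP10K or more with the same direction in both sets, the naming markers, and the 2 highest and lowest of each list; mitochondrial, ribosomal, haemoglobin, Xist and Y-linked genes and those of the choice were left out of the ranking. Other list members and bins are given as context and were chosen after their values were seen. Members and lists were chosen with earlier results of these data known. No model was fitted and no p-value was computed, since each genotype had 1 library and no label ties cells to it. Python 3.11.15, numpy 2.4.6, scipy 1.17.1 and pandas 2.3.3 were used, and the calls were tested on simulated counts.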

Additional observations from a re-analysis of the deposited data

Results flagged for a closer look

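Some of the set 1 cells left out of the comparisons also met the limits of the choice. Of the 818 set 1 cells dropped because set 0 had the same barcode, 74 met every limit of the choice. In 62 of the 74 cases the set 0 cell of that barcode was itself among the 476 cells described. The 67 set 0 cells with such a barcode had a median depth of 51183 UMIs, and their set 1 counterparts 13278 UMIs. With both cells of every shared barcode left out, 409 cells remained, 4.0% of the kept cells. What the shared barcodes are, and whether the 74 are further cells, was not tested.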

How the results depend on the processing

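The share of cells chosen, 4.31%, was 5.39% in set 0, 3.05% in set 1, 1.90% with Fabp6 from 20 to below 40 and 3.70% with Fabp1 of at least 150. The share of genes between the flanks, 99.2%, was 88.1% in set 1, 97.1% with no minimum level, 100% with a minimum of 1 or with 0.1 added, 95.2% with Fabp6 from 20 to below 40 and 96.8% with equal weight of both sets, a setting chosen after seeing the data. The median position, 0.67, was 0.37 in set 1 when the genes apart were picked there. Over the high flank, the 10 higher genes became 5 in set 0, 101 in set 1, 48 with no minimum, 1 with a minimum of 1, 3 with 0.1 added and 5 with the narrower Fabp6 range. The 5 lower genes became 98 in set 1, 26 with no minimum, 2 with a minimum of 1, 3 with 0.1 added, 3 with Fabp1 of at least 150 and 10 with equal weight. Over the low flank, the 41 higher genes became 110 with no minimum, 14 with a minimum of 1 and 22 with 0.1 added, and the 46 lower genes became 130 with no minimum and 20 with a minimum of 1. Over other cells, the 37 higher genes became 16 in set 0, 66 in set 1, 62 with cells kept at 1000 UMIs, 500 genes and at most 10% mitochondrial signal, 73 with no minimum, 12 with a minimum of 1 and 16 with 0.1 added. The 229 lower genes became 368 with totals free of mitochondrial, ribosomal and haemoglobin genes, 825 with no minimum, 65 with a minimum of 1 and 146 with 0.1 added. Of the list medians 1197 stayed within 1.5-fold and 5 moved further. Of the named ratios 744 stayed within the counting interval and 180 did not. None of the named ratios turned its direction where it was called. Ranked genes were picked for the same direction in both sets, so the settings of 1 set alone could not turn them. Reg3b, called over the low flank but not among the named ratios, had opposite directions in the sets. A different minimum changes which genes are tested; for the other settings the cause was not tested. No paired analysis was possible because each genotype has 1 library and the cells carry no genotype. High-flank values of set 1 are limited by 23 cells.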
